A study of Mus musculus with 29 samples.

Results

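T cell receptor repertoires of mouse ovary metastases that had received an anti-PD-L1 antibody were set against those that had not. The comparison took 6 ovary samples under anti-PD-L1 and 4 ovary samples without it, of 29 samples in the whole series, and only productive rows, in which the junction reads as the 20 standard amino acids. All samples came from an experimental metastasis model of Braf-mutated melanoma, and no sample without melanoma was used here. The anti-PD-L1 samples were anti-PD-L1 lead-in alone at day 0 (number 10), trametinib with anti-PD-L1 started together at day 3 (number 1, the concurrent combination) and anti-PD-L1 lead-in followed by both agents at day 3 (number 12, the lead-in combination). The samples without anti-PD-L1 were untreated at day 0 (number 3, titled as vehicle) and trametinib alone at day 3 (number 13). Trametinib is an inhibitor of the MEK kinases. Each number was sampled as 2 parts, and each treatment had 1 number, so the comparison rested on 3 numbers against 2. The labels used here do not say what a number or a part stands for, so a treatment and its number cannot be told apart, and neither can trametinib and day 3. The p-values measure only the spread between these numbers, and receptor chains alone hold no markers against which the labelled tissue could be checked.

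An alpha beta T cell carries 1 rearranged beta chain (TRB) and usually 1 rearranged alpha chain (TRA), each built from a V segment, a J segment and, in the beta chain, a D segment. The CDR3 loop at the junction makes most of the contact with the antigenic peptide, and T cells that descend from 1 parent share it. PD-L1 is a ligand of PD-1, a receptor that restrains activated T cells, and antibodies that block it release that restraint. Expansion of a few clones shows in a repertoire as a larger share of counts held by its largest clonotypes. A clonotype here is a chain with a given V name, J name and CDR3 amino acid sequence.

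The leading clonotypes of each number are shown first to make plain which chains were expanded in which sample, each in full where its CDR3 has at most 14 residues, with the share of their chain's counts as the mean of 2 parts. Leading chains with a longer CDR3 are left out of the lists. For number 1 these were its largest TRB chains, TRBV3 TRBJ2-1 (3.17%) and TRBV13-2 TRBJ2-2 (2.85%), and its largest TRA chain, TRAV11N TRAJ18 (2.98%). Also left out were a TRBV5 TRBJ2-4 chain of number 10 (3.09%) and a TRAV7D-2 TRAJ39 chain of number 12 (3.88%). Among the anti-PD-L1 numbers, the leading chains of at most 14 residues were these.
Lead-in number 10, TRBV16 TRBJ2-7, 5.67% of TRB: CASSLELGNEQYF
Lead-in number 10, TRBV30 TRBJ1-1, 3.04% of TRB: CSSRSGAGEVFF
Lead-in number 10, TRAV7D-2 TRAJ23, 7.47% of TRA: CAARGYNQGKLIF
Lead-in number 10, TRAV6D-5 or TRAV6N-5 TRAJ21, 3.28% of TRA: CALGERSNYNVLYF
Concurrent combination number 1, TRBV16 TRBJ1-1, 2.72% of TRB: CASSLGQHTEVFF
Concurrent combination number 1, TRAV6-1 TRAJ21, 2.49% of TRA: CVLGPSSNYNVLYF
Lead-in combination number 12, TRBV1 TRBJ2-1, 9.92% of TRB: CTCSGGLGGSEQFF
Lead-in combination number 12, TRBV23 TRBJ2-7, 5.43% of TRB: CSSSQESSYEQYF
Lead-in combination number 12, TRBV3 TRBJ1-1, 4.32% of TRB: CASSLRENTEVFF
Lead-in combination number 12, TRAV7D-2 TRAJ49, 29.9% of TRA: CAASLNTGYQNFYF

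In the numbers without anti-PD-L1, the leading chains of at most 14 residues were the following. Left out for their length were the largest TRA chain of number 13, TRAV11N TRAJ18 (5.04%), and its TRBV5 TRBJ1-4 chain (3.43%). A TRBV2 TRBJ1-1 chain of number 3 (2.42%) was left out as well.
Untreated number 3, TRBV16 TRBJ2-5, 4.51% of TRB: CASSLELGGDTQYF
Untreated number 3, TRBV16 TRBJ2-7, 2.82% of TRB: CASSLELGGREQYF
Untreated number 3, TRAV7D-2 TRAJ18, 15.6% of TRA: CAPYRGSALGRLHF
Untreated number 3, TRAV7D-2 TRAJ23, 4.01% of TRA: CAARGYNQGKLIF
Trametinib number 13, TRBV12-1 TRBJ2-7, 3.65% of TRB: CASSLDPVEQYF
Trametinib number 13, TRBV15 TRBJ2-7, 2.97% of TRB: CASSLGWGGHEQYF
Trametinib number 13, TRAV13D-1 TRAJ37, 3.34% of TRA: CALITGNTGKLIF

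The beta chains in these lists were each found in 1 ovary number, except the TRBV16 TRBJ2-7 chain of number 3, which had a single count in number 12. In number 12 the CDR3 and J of the TRBV3 TRBJ1-1 chain had 620 further counts under 1 other V name, 25.0% of all its counts. Such counts form a separate clonotype here, and whether they are a separate rearrangement was not tested. Some of the means came mostly from 1 part. TRAV6-1 TRAJ21 took 0.104% and 4.88% in the parts of number 1. Of the chains left out for length, TRBV13-2 TRBJ2-2 took 0.0886% and 5.62% in the parts of number 1. TRAV7D-2 TRAJ39 took 7.74% and 0.0213% in the parts of number 12. In number 13, TRBV12-1 TRBJ2-7 took 6.45% and 0.848%, and TRAV13D-1 TRAJ37 took 5.87% and 0.817%. The TRAV7D-2 TRAJ23 alpha chain led in a number of each group, first by size in number 10 and next to largest in number 3. The lead-in combination held the largest clone of either chain among the 5 numbers, on the beta side and on the alpha side. The alpha clone of 29.9% in number 12 made up 20.6% of the TRA counts in the brain samples of the same number.

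Depth differed between the samples. TRB counts ran from 18878 to 51674 in the anti-PD-L1 samples and from 16179 to 24408 in the samples without, and TRA counts from 19897 to 51549 and from 14088 to 37503. On the log2 scale the TRB count averaged 14.7 ± 0.49 under anti-PD-L1 and 14.3 ± 0.19 without (SD over numbers, n = 3 and 2; exact permutation p = 0.4, adjusted p = 1). In bulk samples, more T cells, more receptor RNA per cell and deeper sequencing of a library cannot be told apart. Of 10 possible assignments of 5 numbers, the smallest two-sided p the design allows is 0.2, so no single measure could pass an adjusted threshold of 0.05.

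Large beta clonotypes were counted in each sample as a direct view of clonal expansion. Clonotypes of at least 1% of TRB counts numbered 15 and 10 in number 10, 11 and 12 in number 1 and 13 and 17 in number 12, against 7 and 9 in number 3 and 10 and 9 in number 13. The number means did not overlap, at 13 ± 1.8 under anti-PD-L1 and 8.75 ± 1.06 without (exact permutation p = 0.2, the smallest possible, adjusted p = 0.978 over 11 measures). Single parts met at 10.

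The 10 largest beta clonotypes held 22.6% and 23.9% of TRB counts in number 10, 19.0% and 22.5% in number 1 and 36.5% and 35.8% in number 12, against 20.1% and 19.2% in number 3 and 20.2% and 21.1% in number 13. Number 12 stood well above the others, while the parts of number 1 lay on both sides of the samples without anti-PD-L1. The means were 26.7% ± 8.3 under anti-PD-L1 and 20.1% ± 0.69 without (difference 6.54 percentage points, exact permutation p = 0.2, adjusted p = 0.978). Without number 12 the difference was 1.83 points.

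Simpson concentration, the chance in percent that 2 counts drawn from a sample belong to the same clonotype, was 0.894% and 0.912% for TRB in number 10, 0.658% and 0.826% in number 1 and 1.97% and 2.30% in number 12. It was 0.708% and 0.595% in number 3 and 0.793% and 0.748% in number 13. The groups overlapped through number 1 (exact permutation p = 0.4, adjusted p = 1). For TRA the concentration averaged 1.11% in number 10, 0.851% in number 1 and 9.81% in number 12, against 2.86% in number 3 and 0.912% in number 13. The 2 highest values belonged to the numbers with the TRAJ49 and TRAJ18 clones shown above, 1 in each group, and the difference between the groups of 2.04 points turned to -0.907 without number 12.

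Richness, the number of clonotypes expected at the depth of the shallowest sample (16179 TRB counts), averaged 2344 in number 10, 2046 in number 1 and 1486 in number 12, against 2226 in number 3 and 1939 in number 13. The lead-in combination had the fewest beta clonotypes and the lead-in alone the most. On the log2 scale the anti-PD-L1 numbers differed from the others by -0.11 (exact permutation p = 1, adjusted p = 1), and by 0.07 without number 12. At 14088 TRA counts, alpha richness ordered the numbers in the same way at its ends, with the highest mean in number 10 and the lowest in number 12.

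**Figure D1:**
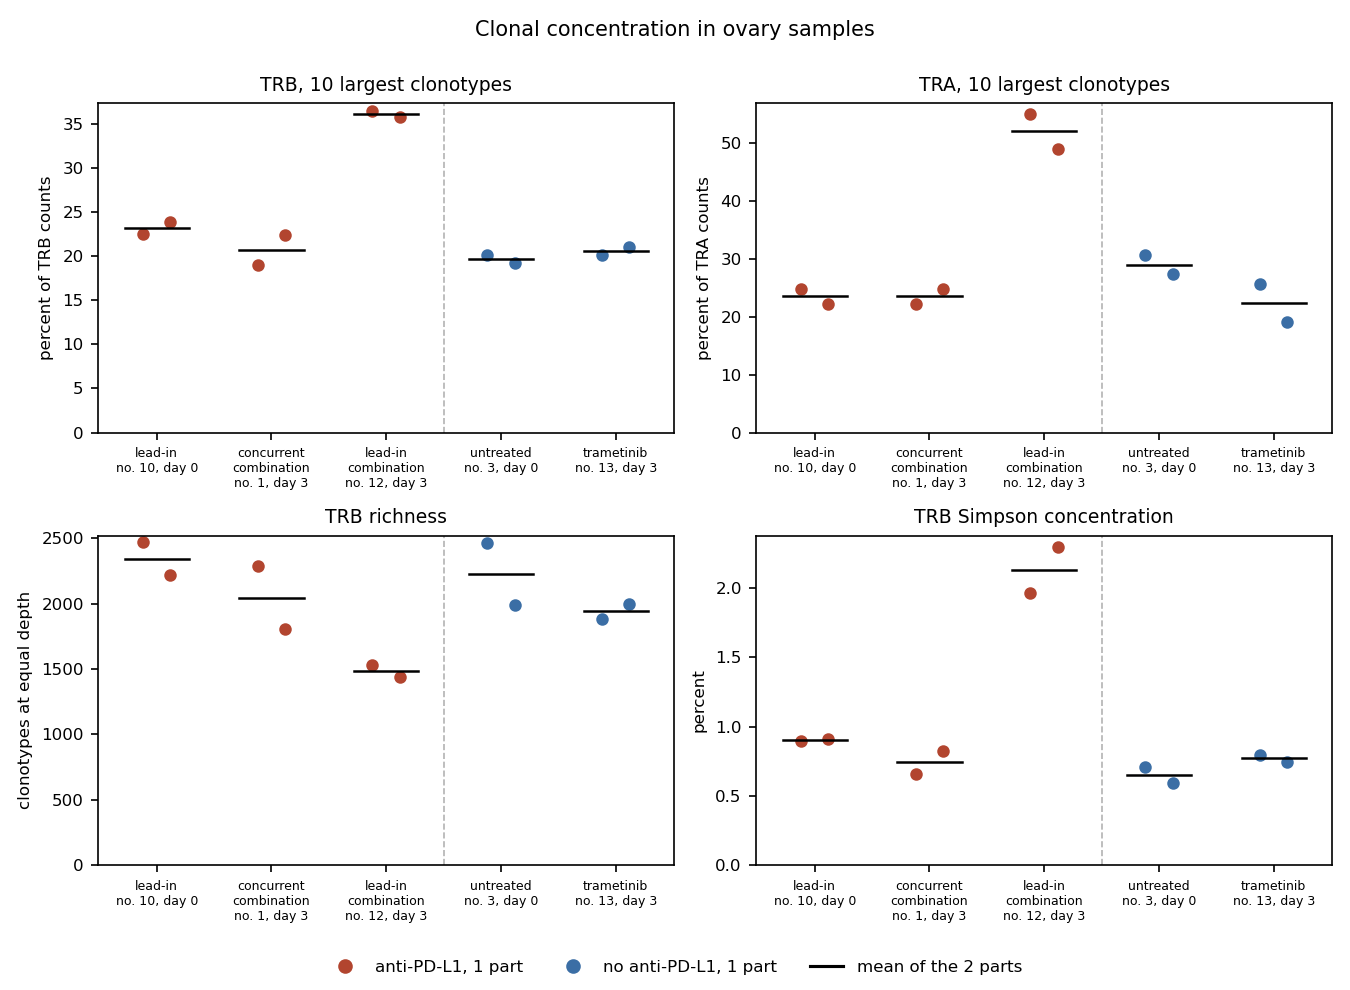
Share of the 10 largest TRB and TRA clonotypes (percent of the chain's counts), TRB richness (clonotypes at equal depth) and TRB Simpson concentration (percent) in ovary samples. Each point is 1 part and each line the mean of the 2 parts of a number; the lead-in combination, number 12, has the highest shares (36.1% of TRB on average) and the lowest richness (1486).

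Most large beta clones were found in 1 number. Of 20431 TRB clonotypes in the ovary samples, 19997 were found in 1 number, and only 5 were found in all 5. Of 59 clonotypes that reached 1% in some number, 6 were seen in another number and 0 reached 1% in a second one. A TRBV13-1 TRBJ1-6 chain, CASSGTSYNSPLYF, took 1.15% in number 1 and 0.440% in number 12. A TRBV1 TRBJ1-1 chain, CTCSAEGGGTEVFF, took 1.43% in number 10 and 0.172% in number 12. Both had 0 counts in the numbers without anti-PD-L1. A TRBV5 TRBJ1-4 chain of 15 residues had 0 counts in all 3 anti-PD-L1 numbers, against 1.28% in number 3 and 0.322% in number 13. A TRBV2 TRBJ2-7 chain, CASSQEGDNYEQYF, took 0.193% in number 1, against 0.0238% in number 3 and 1.19% in number 13.

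No clone of at least 1% was shared by all 3 anti-PD-L1 numbers alone. There were 5 TRB clonotypes in all 3 anti-PD-L1 numbers and in neither of the others, and 40 in both numbers without anti-PD-L1 and in no anti-PD-L1 number. These counts describe sets of unequal size, 3 numbers against 2, and deeper samples hold more clonotypes. In all, 45 TRB clonotypes were found in exactly 3 numbers and 374 in exactly 2. The 5 numbers form 10 possible sets of 3 and 10 of 2. The counts of 5 and 40 lie near an even split over those sets. Of the 5 in all 3 anti-PD-L1 numbers alone, the 3 that ranked highest by their lowest share included a TRBV2 TRBJ1-1 chain, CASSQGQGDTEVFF. It took 0.0029% in number 10, 0.0564% in number 1 and 0.0053% in number 12. These were 3, 28 and 2 counts, in each number from 1 part only. Another was a TRBV3 TRBJ1-4 chain, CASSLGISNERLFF, at 0.023%, 0.00201% and 0.0132% in the same numbers, or 17, 1 and 6 counts. All of these shares lay below 0.1%.

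The beta chains common to all 5 numbers were also small. A TRBV3 TRBJ1-3 chain, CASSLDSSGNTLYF, took 0.189% in number 10, 0.260% in number 1 and 0.0238% in number 12, against 0.349% in number 3 and 0.158% in number 13. A TRBV5 TRBJ2-7 chain, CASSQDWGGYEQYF, took 0.217%, 0.102% and 0.106% in the anti-PD-L1 numbers, against 0.0247% and 0.130% in numbers 3 and 13. The values of both chains overlapped between the groups.

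Alpha chains were shared more widely than beta chains. Of 15562 TRA clonotypes, 14774 were found in 1 number and 18 in all 5, and 14 of the 46 that reached 1% in some number were seen in another. The TRAV7D-2 TRAJ23 chain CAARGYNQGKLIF took 7.47% in number 10, 1.84% in number 1 and 1.38% in number 12, against 4.01% in number 3 and 0.404% in number 13. The TRAV14-1 or TRAV14N-1 TRAJ16 chain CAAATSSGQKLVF took 0.802%, 1.64% and 0.573% in the anti-PD-L1 numbers, against 0.265% and 0.220% in numbers 3 and 13, and its numbers did not overlap. Its parts did: it took 0.0542% and 1.09% in the 2 parts of number 12, against 0.185% to 0.326% in the 4 samples without anti-PD-L1. A clonotype list chosen by its shares gets no test.

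Of 15562 TRA clonotypes, 50 were seen in both numbers without anti-PD-L1 and in no anti-PD-L1 number. In all, 620 were found in exactly 2 numbers and 118 in exactly 3, over 10 possible sets of each size. Neither the 50 nor the 10 alpha chains seen in all 3 anti-PD-L1 numbers alone lay above an even split over those sets. The chains in all 3 anti-PD-L1 numbers and in neither of the others were ranked by their lowest share. The one with the highest lowest share had the CDR3 and J segment of the widely shared TRAV7D-2 TRAJ23 chain above, under the name TRAV14D-1, at 0.135%, 0.149% and 0.030%. Counts with that CDR3 and TRAJ23 under a V name other than TRAV7D-2 amounted to 8.74% of all its counts in number 10, 18.1% in number 1 and 5.32% in number 12, against 17.0% in number 3 and 33.9% in number 13. Whether these are separate rearrangements or differently named reads of 1 chain was not tested. Mouse alpha V segments lie in duplicated copies of high similarity, and 30.2% of ovary TRA counts carry a name that joins several segments.

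Clonotype overlap between anti-PD-L1 numbers lay within the range of overlap across the groups. Morisita-Horn overlap, which is 100% for identical clonotype frequencies, was 0.684% to 1.94% for TRB between anti-PD-L1 numbers (mean 1.16% over 3 pairs). It was 0.165% to 2.57% across the groups (mean 1.06% over 6 pairs) and 1.14% between the 2 numbers without. The difference of 0.108 points between the first 2 means had an exact permutation p of 0.8 over the 5 numbers. The 2 parts of a number overlapped by 55.9% to 87.4%. The highest overlap of TRB was between the lead-in number 10 and the trametinib number 13.

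**Figure D2:**
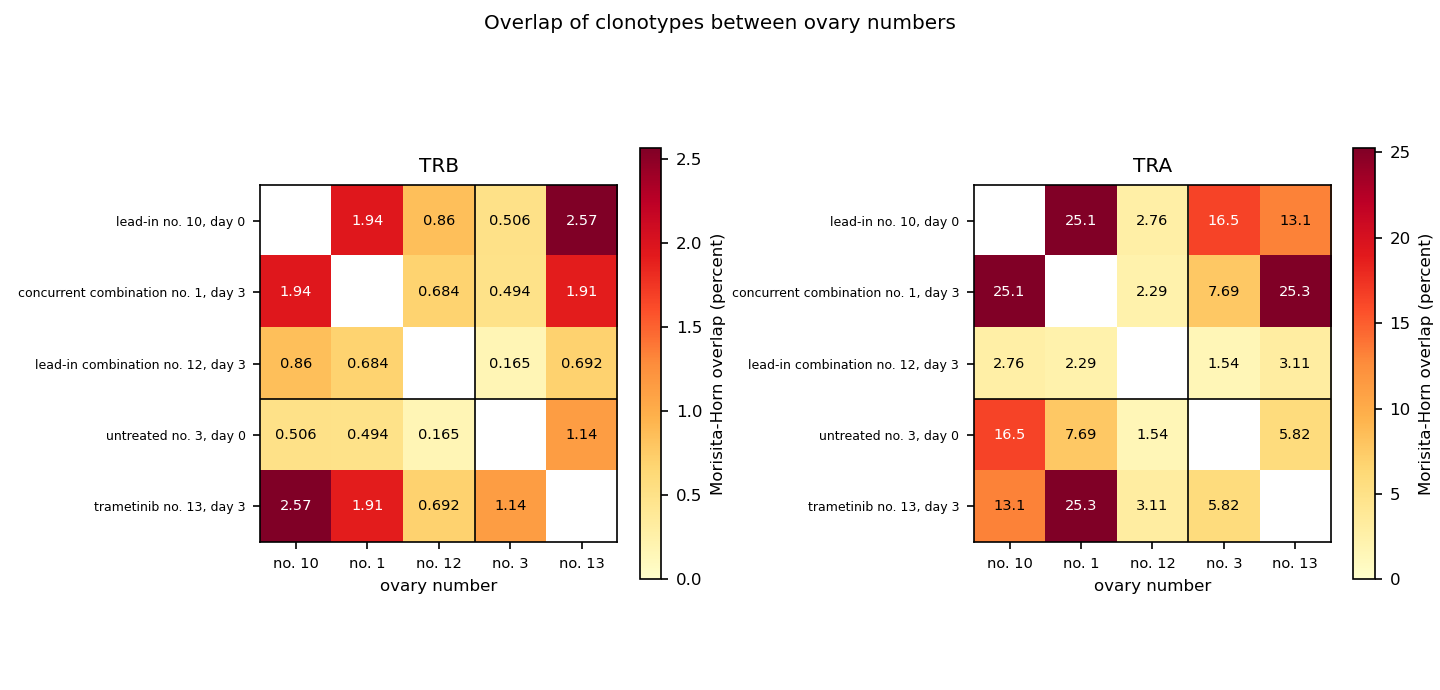
Morisita-Horn overlap (percent) of TRB and TRA clonotypes between the 5 ovary numbers, with black lines between the 3 anti-PD-L1 numbers and the 2 without. TRB overlaps range from 0.165% to 2.57%, and the pairs within the anti-PD-L1 block lie inside that range.

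V segments, which encode most of the receptor's contacts with the MHC molecule, were tested over 110 names with the 2 parts of a number summed, and a share given per number here and below is of those summed counts. edgeR's quasi-likelihood test called 0 of 110 at an adjusted p below 0.05, which is 0% of those tested, 4 had an unadjusted p below 0.05, and DESeq2 also called 0. In simulated counts with the spread of these libraries, edgeR recovered 1 of 11 names changed 4-fold and 7 of 11 changed 8-fold, so moderate differences would be missed. By overlap alone, the 3 anti-PD-L1 numbers lay wholly above or below the others for 22 of 110 names, or 20%. Among the 31 names with a mean share of at least 2%, 4 did so, or 12.9%. With 3 numbers against 2, such separation has a probability of 0.2 when labels are assigned at random, and neither share lies above that.

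Those 4 common segments were TRBV14, TRBV12-2 and TRAV9N-2, lower under anti-PD-L1 in these numbers, and TRAV14D-1, higher. TRBV14 made up 1.73% of TRB counts in number 10, 1.71% in number 1 and 3.15% in number 12, against 3.63% in number 3 and 3.73% in number 13. Its log2 fold change was -0.74 ± 0.56 (SE, edgeR adjusted p = 0.822). TRBV12-2 took 2.55%, 3.13% and 2.48% in the anti-PD-L1 numbers, against 5.21% and 3.39% in numbers 3 and 13. The gap between the groups of TRBV12-2 was smaller than the spread of the numbers without anti-PD-L1, and single parts overlapped.

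TRAV9N-2 took 1.80% of TRA counts in number 10, 2.02% in number 1 and 2.44% in number 12, against 2.71% in number 3 and 5.85% in number 13. In number 13, 2.88% of TRA counts were a single TRAV9N-2 clonotype. TRAV14D-1 took 1.81%, 2.43% and 3.01% in the anti-PD-L1 numbers, against 1.5% and 1.69% in numbers 3 and 13. With the largest TRAV14D-1 clonotype of each number taken out, the shares were 1.31%, 1.02% and 0.703%, against 1.02% and 1.33%, and the groups overlapped.

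**Figure D3:**
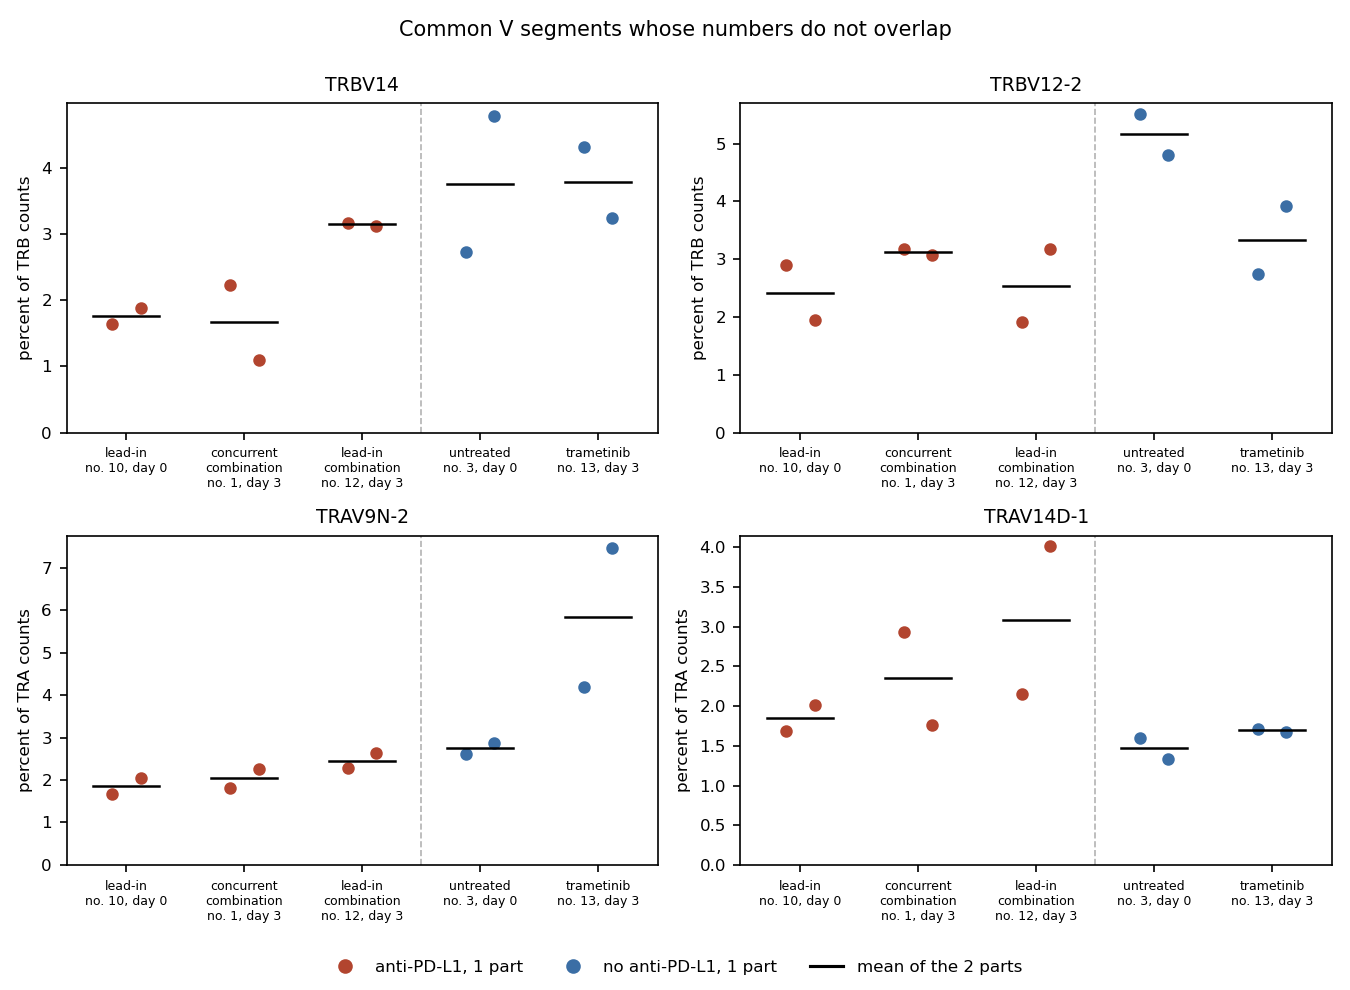
Shares of TRBV14, TRBV12-2, TRAV9N-2 and TRAV14D-1 (percent of the chain's counts) in each part of each ovary number, with the mean of the 2 parts as a line. The number means do not overlap between the groups, but single parts do for all 4 segments; for TRBV14, number 12 (3.18% and 3.13%) lies above 1 part of number 3 (2.72%).

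The segments with the lowest p were rare ones. TRAV12-1 or TRAV12N-1 took 0.0309%, 0.0501% and 0.0528% of TRA counts in numbers 10, 1 and 12, against 0.145% and 0.484% in numbers 3 and 13 (log2 fold change -2.81 ± 0.93, edgeR adjusted p = 0.822). TRAV12D-1, a copy of the same family, took 0.193%, 0.0609% and 0.106%, against 0.503% and 0.522%. TRAV7D-6 or TRAV7N-6 took 0.0556%, 0.0566% and 0.0293%, against 0.0101% and 0.0140%. TRAV4-3 or TRAV4D-3 stayed below 0.1% in all 5 numbers.

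Beside TRBV14, the TRBV segments of lowest p were TRBV23, TRBV21 and TRBV24. TRBV23 took 0.220% and 0.323% in numbers 10 and 1 and 6.86% in number 12, against 0.370% and 0.761% in numbers 3 and 13, and 5.34% of TRB counts in number 12 were the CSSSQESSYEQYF clone printed above. TRBV21 took 0.349% in number 1, of which 0.301 points were 1 clonotype, and 0.0172% and 0% in numbers 10 and 12, against 0.0231% and 0.00281% in numbers 3 and 13. TRBV24 took 0.0160%, 0.0589% and 0% in numbers 10, 1 and 12, against 0.0624% and 0.157% in numbers 3 and 13. It held 0 to 27 counts in the anti-PD-L1 numbers, against 27 and 56 in the others. In number 13, 0.138 points of its share were 1 clonotype.

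The TRBV13 family, formerly Vbeta8 and a common family in mice, did not separate the groups. It made up 17.2% of TRB counts in number 10, 22.4% in number 1 and 13.5% in number 12, against 14.1% in number 3 and 20.4% in number 13. Its means were 17.7% ± 4.5 under anti-PD-L1 and 17.3% ± 4.5 without (exact permutation p = 1). TRBV13-2, its largest member, had a log2 fold change of 0.0045 ± 0.50 (edgeR adjusted p = 0.993), TRBV13-1 of 0.38 ± 0.54 (adjusted p = 0.86) and TRBV13-3 of -0.58 ± 0.60 (adjusted p = 0.827). TRBV1 took 8.60%, 6.16% and 16.4% in the anti-PD-L1 numbers, against 7.25% and 8.09%; without the largest clonotype of each number the shares were 7.16%, 5.62% and 7.28%, against 5.45% and 7.25%. TRBV29 and TRBV19 had log2 fold changes of 0.06 ± 0.52 and 0.01 ± 0.51 (edgeR adjusted p = 0.984 and 0.988).

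Among J segments, TRAJ18 was lower in every anti-PD-L1 sample than in every sample without, though the test did not pass. TRAJ18 took 2.36% and 2.77% of TRA counts in number 10, 4.34% and 5.70% in number 1 and 4.19% and 4.10% in number 12, against 23.1% and 20.7% in number 3 and 7.85% and 8.68% in number 13. The log2 fold change was -1.98 ± 0.49 (SE, edgeR adjusted p = 0.0807 over 53 J segments, 0% of which were called). The low and the high samples formed separate ranges, and the untreated number stood highest.

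TRAJ18 was high through different chains in the 2 numbers without anti-PD-L1. In number 3, 16.0% of TRA counts were the single TRAV7D-2 TRAJ18 clone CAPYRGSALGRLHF, and in number 13 the invariant pairing made up 6.99%. TRAJ18 outside the invariant pairing took 0.991%, 1.13% and 1.16% in the anti-PD-L1 numbers, against 20.4% in number 3 and 1.28% in number 13. With clonotypes of at least 1% left out, the log2 fold change of TRAJ18 was -0.26 (edgeR adjusted p = 0.945), and with each clonotype counted once it was -0.32 (adjusted p = 0.969). Without number 1 it was -2.20 (adjusted p = 0.00705) and without number 13 it was -2.53 (adjusted p = 0.00536), but without number 3 it was -1.1 (adjusted p = 0.955), without number 10 it was -1.75 (adjusted p = 0.597) and without number 12 it was -2.04 (adjusted p = 0.348).

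TRBJ1-1 was higher and TRBJ1-4 lower in the anti-PD-L1 numbers, with neither past the threshold. TRBJ1-1 took 14.6% and 15.6% of TRB counts in number 10, 12.7% and 10.1% in number 1 and 13.7% and 11.2% in number 12, against 9.04% and 7.74% in number 3 and 7.70% and 7.49% in number 13. No part of 1 group reached the other (log2 fold change 0.70 ± 0.38, edgeR adjusted p = 0.786). TRBJ1-4 took 6.03% and 5.55%, 4.49% and 3.88%, and 4.6% and 3.38% in those 3 numbers, against 5.23% and 10.5% in number 3 and 7.61% and 10.9% in number 13. Its parts overlapped through number 3, and its log2 fold change was -0.85 ± 0.44 (adjusted p = 0.786).

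Without the largest TRBJ1-1 clonotype of each number, TRBJ1-1 still took 12.3%, 8.98% and 8.48% in numbers 10, 1 and 12, against 6.15% and 6.88% in numbers 3 and 13. As a share of distinct clonotypes it was 10.8%, 9.6% and 10.7%, against 9.34% and 8.92%. TRBJ1-4 as a share of distinct clonotypes was 6.51%, 6.46% and 5.9%, against 6.68% and 7.89%. With each clonotype counted once, the log2 fold change was 0.18 for TRBJ1-1 and -0.21 for TRBJ1-4 (edgeR adjusted p = 0.969 for both). TRAJ49 took 31.6% of TRA counts in number 12, 29.8 points of them the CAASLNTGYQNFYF clone, with 4.71% and 2.59% in numbers 10 and 1, against 2.56% and 2.92% in numbers 3 and 13. Of 53 J segments, 8 had numbers that did not overlap between the groups, or 15.1%.

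**Figure D4:**
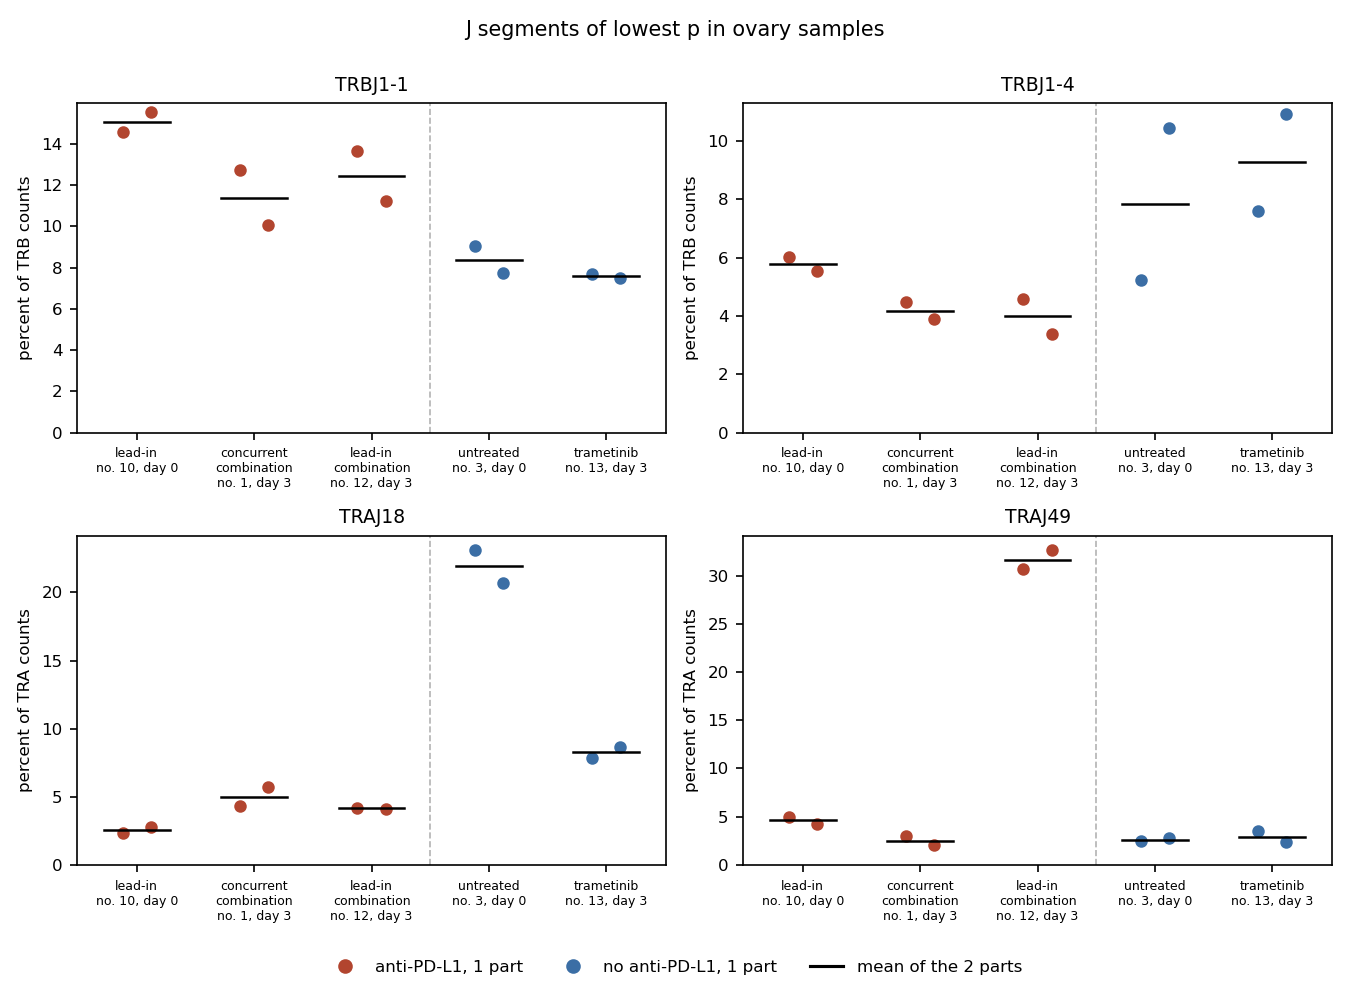
Shares of TRBJ1-1, TRBJ1-4, TRAJ18 and TRAJ49 (percent of the chain's counts) in each part of each ovary number, with the mean of the 2 parts as a line. All parts under anti-PD-L1 lie above the others for TRBJ1-1 and below them for TRAJ18, TRBJ1-4 overlaps through 1 part of number 3 (5.23%), and the TRAJ49 share is high in number 12 alone.

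Pairs of V and J segments on the beta chain were tested over 241 combinations, of which edgeR called 0, or 0%, while 20 had an unadjusted p below 0.05 and DESeq2 called 4. In simulated counts with the spread of these libraries, edgeR recovered 0 of 24 pairs changed 4-fold and 1 of 24 changed 8-fold. The 0 calls therefore do not show equal usage. In 66 of 241 pairs, or 27.4%, the numbers did not overlap. The pair of lowest p, TRBV26 TRBJ1-5, had 3, 1 and 5 counts in numbers 10, 1 and 12, against 763 counts in number 3 and 33 in number 13 (edgeR adjusted p = 0.112). In number 3, 1.5 points of its 1.76% were 1 clonotype. TRBV14 TRBJ2-4 took 0.106%, 0.0808% and 0.0216%, against 0.735% and 1.22%, and in numbers 3 and 13 a single clonotype made up 0.598 and 1.04 points of that (edgeR adjusted p = 0.373).

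The CD1d-restricted invariant natural killer T cells respond to lipid antigens through an alpha chain of TRAV11 and TRAJ18, whose CDR3 has 15 residues. Chains named TRAV11, TRAV11D or TRAV11N with TRAJ18 made up 1.32% and 1.85% of TRA counts in number 10, 2.99% and 4.87% in number 1 and 3.63% and 2.22% in number 12, against 1.75% and 2.08% in number 3 and 6.33% and 7.63% in number 13. The trametinib number was highest and the 2 day 0 numbers lowest. The means were 2.81% ± 1.17 under anti-PD-L1 and 4.45% ± 3.58 without (exact permutation p = 0.6, adjusted p = 0.978). In each of the 10 samples, 88.5% to 95.4% of these counts carried the same 15-residue CDR3.

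Mucosal-associated invariant T cells, which recognise vitamin B metabolites on MR1, carry TRAV1 with TRAJ33. This pairing had 5 and 11 counts in number 10, 16 and 3 in number 1 and 0 and 0 in number 12, against 1 and 9 in number 3 and 23 and 26 in number 13. A limit of 3 counts corresponds to 0.0108% and 0.0128% in the 2 parts of number 12, and the exact binomial 95% upper limits there were 0.0133% and 0.0157%, from counting error alone. The pairing was most frequent with trametinib alone, at 0.163% and 0.180%, with exact binomial 95% intervals of 0.104% to 0.245% and 0.118% to 0.264%. Over the numbers the groups overlapped (exact permutation p = 0.6, adjusted p = 0.978).

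Properties of the CDR3 overlapped between the groups. The mean TRB CDR3 length was 13.96 ± 0.07 residues under anti-PD-L1 and 13.95 ± 0.09 without (exact permutation p = 0.8). Beta chains with hydrophobic residues at both CDR3 positions 6 and 7, a feature linked in mice to self-reactivity, took 0.620% ± 0.34 and 0.80% ± 0.032 of TRB counts (exact permutation p = 0.6). Beta chains with a cysteine inside the CDR3 took 8.56%, 6.38% and 16.5% in numbers 10, 1 and 12, against 7.53% and 8.36% in numbers 3 and 13. Of these counts, 95.5% to 99.1% were TRBV1 chains, whose germline end encodes such a cysteine, and the TRBV1 clone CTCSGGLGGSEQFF of number 12 is one of them. TRBJ2 segments took 69.3% ± 2.4 and 68.7% ± 1.8 of TRB counts (exact permutation p = 0.8).

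Within day 0 and within day 3 the differences did not all run one way. The 10 largest beta clonotypes held 3.57 points more of the TRB counts under anti-PD-L1 at day 0 (1 number each) and 7.78 points more at day 3 (2 numbers against 1). The day 3 difference came from number 12, at 36.1%, while number 1 held 20.7%, close to the 20.6% of number 13. TRB clonotypes of at least 1% numbered 4.5 more at day 0 and 3.75 more at day 3. TRB richness on the log2 scale differed by 0.08 at day 0 and by -0.16 at day 3, and TRA Simpson concentration differed by -1.75 points at day 0 and by 4.42 points at day 3. At day 3 that concentration was 0.851% in number 1 and 9.81% in number 12, against 0.912% in number 13. TRB richness at day 3 was above number 13 in number 1 and below it in number 12. With 1 or 2 numbers in a cell these differences have no test of their own.

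The same 5 numbers were also sampled in the brain. The ovary and brain repertoires of a number overlapped by 22.5% to 52.4% (Morisita-Horn, TRB), and the ovary repertoire of a number overlapped with the brain of any other number by at most 6.25% for TRB. For TRA the overlap with the brain of the same number was 40.1% in number 10, 58.2% in number 1 and 90.4% in number 12, against 58.3% in number 3 and 47.6% in number 13. The highest TRA overlap with the brain of another number was 56.6%, 27.0% and 3.57% for numbers 10, 1 and 12, against 15.5% and 31.7% for numbers 3 and 13, so number 10 overlapped more with another brain than with its own. In number 12, 15 of its 16 ovary TRB clonotypes of at least 1% were found in its brain samples, where they took 22.8% of 12311 TRB counts; in number 1 it was 11 of 11 (5.87% of 4568) and in number 10 it was 9 of 13 (4.37% of 938). Without anti-PD-L1 it was 5 of 9 in number 3 (3.05% of 622) and 10 of 10 in number 13 (7.25% of 1324). Brain depth ranged from 622 to 12311 TRB counts over these numbers, and its part in these shares was not tested.

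In the brain, the TRB count of the same numbers averaged 10.8 ± 1.9 on the log2 scale under anti-PD-L1 and 8.82 ± 0.77 without (exact permutation p = 0.4, adjusted p = 0.96). In 5 further numbers sampled in the brain only, the averages were 11.4 ± 0.97 and 9.0 ± 0.34 (exact permutation p = 0.2, adjusted p = 0.4). The corresponding ovary difference was 0.44, against 1.96 and 2.40 in these 2 brain sets, and the difference between organs was not tested. Here too, T cell number, receptor RNA per cell and sequencing depth cannot be told apart.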

How the data were processed

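RNA-based receptor sequencing with a QIAGEN QIAseq immune repertoire kit gave 1 combined table of clonotype counts for the series. The deposited values are whole-number counts per chain, CDR3, V name and J name, per the labels' protocols and the values. GRCh38, a human build, is listed for these mouse samples in the submitters' processing notes. The aligner and clonotype caller were not given in the sources used here, and no coordinates are printed. Whether counts are molecules or reads is not stated. Of 49519 rows, 176 with an unresolved CDR3 were left out. All 25 single TRBV and 66 single TRAV names matched symbols in RefSeq GRCm38.p6. No gamma or delta chain rows were found.

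Measures were computed per sample, averaged over the 2 parts of a number, and compared over numbers with exact two-sided permutation tests and Benjamini-Hochberg adjustment within families of 6 and 11 measures (scipy 1.17.1). Richness was computed analytically at equal depth. Segment counts were summed per number and tested with edgeR 4.0.16 (quasi-likelihood, offset of the log chain total, at least 10 counts in at least 2 libraries), run in R 4.3.3. DESeq2 1.42.0 served as the second test. A percentage per number in a segment comparison is of summed counts; lines in plots are means of parts. Procedures were tested on simulated data. At the spread of these libraries, edgeR recovered 1 of 11 V names, 2 of 5 J names and 0 of 24 pairs changed 4-fold. Of those changed 8-fold, it recovered 7 of 11, 5 of 5 and 1 of 24.

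Named segments were those past the threshold or, with none, the 4 TRBV, 4 TRAV, 2 TRBJ and 2 TRAJ names and 2 pairs of lowest p, V names of at least 2% whose numbers did not overlap, and listed segments of TRBV13, invariant and mucosal-associated cells. Named clonotypes were the 3 largest TRB and 2 largest TRA per number and the top 3 per sharing pattern. These members, lists and tests were chosen with earlier results of these data known. CDR3 sequences above 14 residues are not printed.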

Additional observations from a re-analysis of the deposited data

Results flagged for a closer look

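Of 86 groups of samples tested for a value far from the rest, 5 held one. The 2 parts of a number are not independent samples, so the usual rate of about 1 in 20 does not apply. The flagged values describe single libraries. TRBV24 took 0.109% of TRB counts in part 1 of the concurrent combination, apart from the other anti-PD-L1 samples, and 0.284% in part 1 of trametinib, apart from the other samples without anti-PD-L1. TRAV1 took 0.269% of TRA counts in part 1 of the concurrent combination, above the other 5 anti-PD-L1 samples. TRBV21 took 0.0369% and TRBJ1-1 took 9.04% of TRB counts in part 1 of the untreated number, each above the other 3 samples without anti-PD-L1.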

How the results depend on the processing

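No alternative brought any of the 17 repertoire measures past the threshold, but alternatives compared over numbers could not, since their two-sided p cannot fall below 0.2. Only the setting with each part as its own sample, with 210 assignments, allowed smaller p-values, and parts are not independent. Of 338 values under alternatives, 307 kept their sign and 31 turned it. Within day, the TRBV13 family share differed by -0.275 points. With each clonotype counted once, the TRBV13 family share differed by -2.88 points, TRB CDR3 length by -0.0194 residues, the invariant natural killer T share by 0.291 points, hydrophobic positions by 0.0996 points and the extra cysteine by -0.165 points. Overlap of TRB as Jaccard at equal depth differed by -0.0763 points. The cause of these turns was not tested.

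Leaving out a number or a part in turn gave these ranges of the difference: -0.25 to 0.074 for TRB richness and -0.34 to 0.080 for TRA richness (log2), -0.015 to 0.99 for the TRA count (log2), -0.907 to 3.57 points for TRA Simpson concentration and -2.20 to 12.1 points for the 10 largest TRA clonotypes. They were -0.0517 to 0.0700 residues for TRB and -0.149 to 0.0647 residues for TRA CDR3 length. They were -0.750 to 1.90 points for TRBJ2, -2.77 to 3.59 points for TRBV13, -4.17 to 0.898 points for invariant natural killer T chains and -0.479 to 4.56 points for the extra cysteine. For TRB overlap within against across groups the range was -0.559 to 0.774 points. Leaving out number 12 turned 7 of the 17 measures: richness of both chains, TRA Simpson concentration, the 10 largest TRA clonotypes, TRB CDR3 length, TRBJ2 and the extra cysteine.

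For V segments, 2 were called with each clonotype counted once (TRAV12D-1, and TRAV7D-6 or TRAV7N-6). For J segments, 3 were called with each part as its own library, where p-values are too small (TRAJ18, TRAJ40 and TRBJ1-1), and 0 to 2 when a number was left out: 2 without number 1 (TRAJ18 and TRAJ49) and 1 without number 13 (TRAJ18). For TRB pairs, 4 were called by DESeq2, 4 with each part as its own library and 1 with no filter on low counts, and 0 to 5 when a number was left out: 5 without number 1 and 1 without number 12. TRBV26 TRBJ1-5 was among the calls in each of these 5 settings.

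Log2 fold changes that turned with clonotypes of at least 1% left out were those of TRBV23 (-0.62), TRAV14D-1 (-0.22), TRBV1 (-0.0459), TRAV11N (0.38) and TRAV11 or TRAV11D (1.54). Counting each clonotype once turned TRBV13-1 (-0.31), TRBV13-2 (-0.15), TRBV1 (-0.0021) and TRAV11N (0.34), and day as a term turned TRBV13-2 (-0.0080). Leaving out a number gave -0.48 to 5.32 for TRBV21, -1.06 to 2.74 for TRBV23, -0.18 to 0.22 for TRBV13-2, -1.05 to 0.13 for TRBV13-3, -0.0019 to 0.15 for TRBV29, -0.0556 to 0.70 for TRBV1, -0.0999 to 0.19 for TRBV19, -1.19 to 0.58 for TRAV11N and -1.75 to 0.82 for TRAV11 or TRAV11D.

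No paired analysis was possible because each ovary treatment has 1 number and no number appears in both groups. Depth limits rare segments and the MAIT pairing, whose counts per sample were 0 to 26.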

Other observations

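A beta stem shared by several TRBV16 chains was noticed among the leading clones and was chosen after its values were seen. It was taken from 3 large TRBV16 clonotypes of numbers 10 and 3, so high shares in those numbers follow from the choice. Those clonotypes alone took 5.67% in number 10 and 4.51% and 2.82% in number 3, as means of the parts. Chains of TRBV16 that start with CASSLELG made up 7.20% of TRB counts in lead-in number 10, 0% in number 1 and 0.00722% in number 12, against 8.38% in untreated number 3 and 0.121% in number 13. They came from 23 clonotypes in number 10 and 23 in number 3, of 523 and 428 TRBV16 clonotypes there. Both numbers were sampled at day 0, without trametinib, and 1 had received anti-PD-L1.

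The CDR3 of the large TRAV7D-2 TRAJ49 clone of number 12 was also read in number 10, with 944 counts under 3 other V names and 0 under TRAV7D-2. In number 12 the clone had 15235 counts, and 160 counts carried its CDR3 and J under another V name.

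TRAJ40 took 0.967% of TRA counts in number 10, 1.21% in number 1 and 0.802% in number 12, against 2.59% in number 3 and 2.97% in number 13 (edgeR adjusted p = 0.530). It was chosen after its values were seen, being called when each part was taken as its own library.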
